A study of Saccharomyces cerevisiae with 4 samples.

Results

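The B-type cyclin genes *CLB1* to *CLB6* of budding yeast (*Saccharomyces cerevisiae*) were followed in 4 libraries of ribosome footprints (FP) and mRNA from meiotic cells. Members were the entries whose gene symbol was *CLB1*, *CLB2*, *CLB3*, *CLB4*, *CLB5* or *CLB6*, and all 6 were present among the 6549 entries listed for each library. The rule used no measured value. The study compared wild-type diploid SK1 cells with diploids homozygous for *dbp1Δ::kanMX6*, in which the ORF of the RNA helicase gene *DBP1* was replaced from start to stop by the kanMX6 Geneticin-resistance cassette. The paper reports that this insertion also represses the adjacent gene *MRP51*, which encodes a mitochondrial ribosomal protein. It traced the sporulation defect of *dbp1Δ::kanMX6* cells to *MRP51* rather than to loss of Dbp1. In these libraries loss of Dbp1 and the effect on *MRP51* cannot be told apart. Both genotypes were MATa/MATalpha and carried *ho::LYS2*, *lys2*, *ura3*, *trp1::hisG* and further auxotrophic markers. Both were collected after 4 h in sporulation medium, following 1 min with cycloheximide, which holds ribosomes on mRNA (100 µM by the labels, given in mass per volume in the methods). Each genotype and assay had 1 library, so the genotypes were compared without replicates and without a test.

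B-type cyclins bind and activate the cyclin-dependent kinase Cdk1 (Cdc28) and help to choose its substrates. Clb5 and Clb6 are known for starting DNA replication, including the round before meiosis, whereas Clb1, Clb3 and Clb4 act in the meiotic divisions and Clb2 is the main cyclin of mitosis, with little part in meiosis. Most CLB genes other than *CLB2* are induced in meiosis by the transcription factor Ndt80, and *CLB3* mRNA is further known to be held from translation by the RNA-binding protein Rim4 until the second division. The 6 genes form 3 pairs of related sequence, *CLB1* with *CLB2*, *CLB3* with *CLB4*, and *CLB5* with *CLB6*, and neither the strand used in counting nor the fate of reads with several matches is stated, so values of closely related genes carry that uncertainty.

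Levels are in RPKM, reads scaled to ORF length and library size, and translation efficiency (TE) is FP RPKM divided by mRNA RPKM. The paper also reports less bulk translation in *dbp1Δ::kanMX6* cells during meiosis. Values scaled within each library do not show such a change, so FP and TE changes here are relative to the library total. The libraries held an inferred 4102000 (wild-type FP), 3266000 (*dbp1Δ::kanMX6* FP), 2220000 (wild-type mRNA) and 4776000 (*dbp1Δ::kanMX6* mRNA) reads, read from the steps of low RPKM values. The second-best depths, in the same order, were far from these at 2052000, 6532000, 4434000 and 2380000 reads. All inferred read numbers scale with the depth chosen. Intervals are 95% intervals of these inferred reads and cover counting error only, and as no molecular identifiers are described the reads need not be separate molecules. The deleted gene matched its label, since *DBP1* FP were 435.2 RPKM in wild type against 6.9 RPKM in the deletion and its mRNA was 131.5 and 2.9 RPKM. Ratios were summarised over the 5552 entries whose mean reached 10 RPKM, which 5 of the 6 CLB genes reached and *CLB2* did not. Shares of entries given for levels and TE are also among entries past this filter. The median entry was 1.27-fold higher in *dbp1Δ::kanMX6* cells in FP, 1.29-fold higher in mRNA and had a TE ratio of 0.953, so an unchanged RPKM lay below the median entry in FP and mRNA.

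Footprints of 5 of the 6 CLB genes were at least 2-fold lower in *dbp1Δ::kanMX6* cells than in wild type, and none was at least 2-fold higher. Over all entries past the filter, 8.23% were at least 2-fold lower and 15.1% at least 2-fold higher in FP, or 12.8% and 6.36% after centring on the median. In mRNA, 3 of the 6 (*CLB1*, *CLB3* and *CLB6*) were at least 2-fold lower and none higher, where 4.18% of entries were lower and 16.6% higher, or 8.43% and 7.10% after centring. In TE, *CLB3* alone of the 6 was at least 2-fold lower and none was higher, where 6.07% of entries were lower and 3.43% higher. The median log2 change of the 6 genes was −1.51 in FP, −0.90 in mRNA and −0.60 in TE, beside 0.35, 0.37 and −0.07 over all entries past the filter. For the 5 CLB genes past the filter it was −1.84, −1.24 and −0.74. The counts of members were the same after centring. Because RNA was taken from whole cultures, fewer cells at the stage that expresses a gene and less RNA per cell cannot be told apart.

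**Figure D1:**
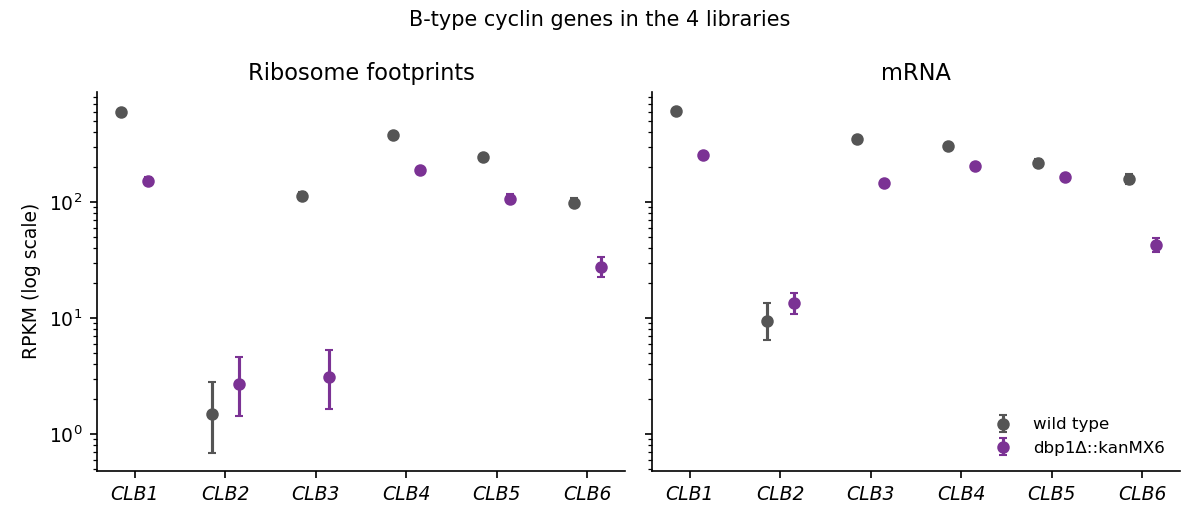
RPKM (log scale) of each CLB gene in FP (left) and mRNA (right), with 1 point per library and bars for the 95% counting interval. In FP *CLB3* stood at 112.7 RPKM in wild type and at 3.1 RPKM in *dbp1Δ::kanMX6* cells, beside *CLB2* at 2.7 RPKM, whereas in mRNA *CLB3* stayed at 145.7 RPKM.

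*CLB1* (YGR108W, 1416 bp, chromosome VII), a cyclin of the meiotic divisions, was the most abundant of the 6 in both wild-type libraries. Its FP were 594.3 RPKM (3452 inferred reads) in wild type and 151.3 RPKM (700 reads) in the deletion. Its mRNA was 601.7 and 255.0 RPKM, from 1891 and 1725 reads. *CLB1* FP were thus 3.93-fold lower (3.62 to 4.27) and its mRNA 2.36-fold lower (2.21 to 2.52). TE of *CLB1* was 0.988 in wild type and 0.593 in the deletion, 1.66-fold lower (1.50 to 1.85). On the log2 scale 62.8% of the FP decrease of *CLB1* was a decrease of mRNA and 37.2% a decrease of TE. Its FP had been above those of 94.0% of entries in wild type and were above 78.2% in the deletion.

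*CLB3* (YDL155W, 1284 bp, chromosome IV), the cyclin of the second meiotic division, showed the largest FP and TE decreases of the 6. Its FP were 112.7 RPKM (594 inferred reads) in wild type and 3.1 RPKM (13 reads) in the deletion. The lower value was above the floor of 3 reads, which is 0.715 RPKM for this ORF. Its mRNA was 346.0 and 145.7 RPKM, from 986 and 893 reads, so that the message remained well covered in both genotypes. *CLB3* FP were 36.4-fold lower (21.1 to 68.7) and its mRNA 2.37-fold lower (2.17 to 2.60). The mRNA decreases of *CLB3* and *CLB1* were therefore alike in size, and the FP decreases were not. TE of *CLB3* was 0.326 in wild type and 0.0213 in the deletion, 15.3-fold lower (8.77 to 26.7), and 24.1% of its log2 FP decrease was in mRNA and 75.9% in TE.

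Within each library *CLB3* was already a message with few footprints for its amount. In wild type its mRNA exceeded that of 89.4% of entries and its FP those of 74.8%, and 13.4% of entries had a lower TE. In *dbp1Δ::kanMX6* cells its mRNA exceeded 73.9% of entries and its FP 3.15%, and 0.697% of entries had a lower TE. Of the 1645 entries with at least 100 RPKM of mRNA in both genotypes, 195 had a TE at or below that of *CLB3* in wild type and 18 in the deletion, *CLB3* itself included. From the largest decrease, *CLB3* ranked 10 of 5453 entries in FP, 149 of 5551 in mRNA and 4 of 5452 in TE. Of the 5452 entries past the filter with all 4 values above 0, none had both a larger FP decrease and a smaller mRNA decrease than *CLB3*.

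The flanking genes in the R64 gene order did not share this pattern. *MSH5*, which follows *CLB3* on the same strand and acts in meiotic crossover formation, had 119.9 RPKM of FP in wild type against 178.8 in the deletion, and 227.2 and 298.1 RPKM of mRNA. *CMR1*, which precedes *CLB3*, had 10.5 and 22.2 RPKM of FP and 15.7 and 15.8 RPKM of mRNA. Both neighbours had more footprints in the deletion, where *CLB3* had fewer.

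**Figure D2:**
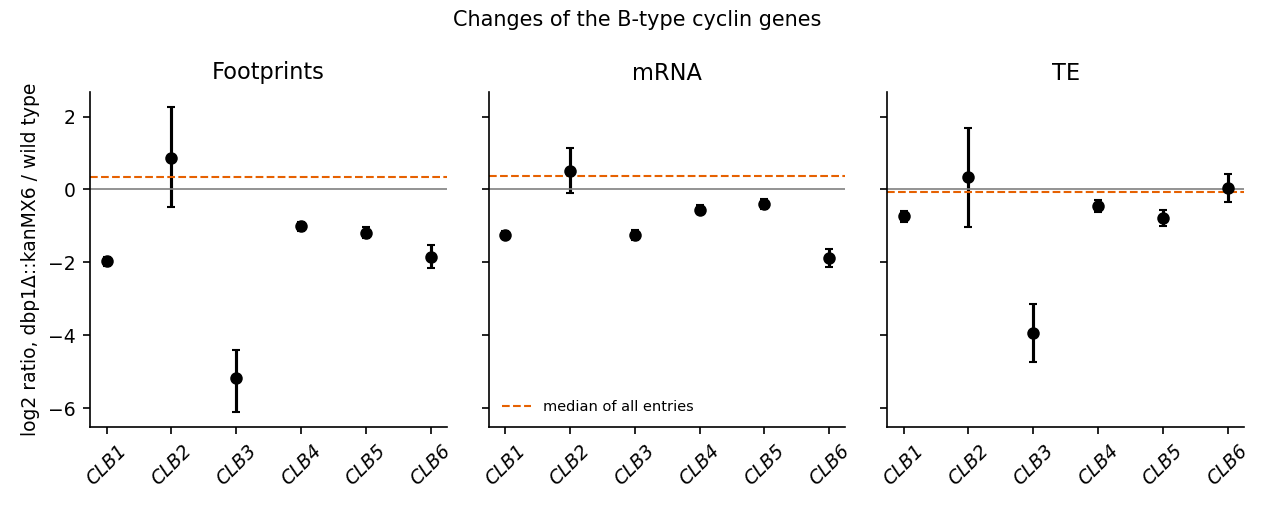
Log2 ratio of *dbp1Δ::kanMX6* to wild type in FP, mRNA and TE for each CLB gene, with bars for the 95% counting interval and a dashed line at the median of all entries. The *CLB3* TE ratio of −3.94 lay below every other member, and the intervals of *CLB2* spanned 0 in all 3 panels.

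*CLB4* (YLR210W, 1383 bp, chromosome XII), the relative of *CLB3* that acts in the meiotic divisions and in spindle orientation, had the smallest FP decrease of the 5 genes with lower footprints. Its FP were 377.1 RPKM (2139 inferred reads) in wild type and 186.7 RPKM (843 reads) in the deletion. Its mRNA was 301.0 and 205.0 RPKM, from 924 and 1354 reads. *CLB4* FP were 2.02-fold lower (1.86 to 2.19), so the interval reached below the 2-fold mark, and its mRNA was 1.47-fold lower (1.35 to 1.60). TE was 1.25 in wild type and 0.911 in the deletion, 1.38-fold lower (1.23 to 1.54). *CLB4* kept a TE above that of 65.1% of entries, from 80.5% in wild type. Its neighbour *PNP1*, a purine nucleoside phosphorylase gene, also had lower values in the deletion, with ratios of 0.520 in FP and 0.744 in mRNA, and *ATG38* on the other side had ratios of 1.06 and 1.27, below the median entry in both.

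The paralogues *CLB3* and *CLB4* had similar mRNA and very different footprints. In wild type the mRNA of *CLB4* was 0.870 times that of *CLB3* (0.794 to 0.953) and its FP were 3.35 times as high (3.05 to 3.67). In the deletion *CLB4* mRNA was 1.41 times that of *CLB3* (1.29 to 1.53) and its FP were 60.2 times as high (35.0 to 114). The TE ratio of *dbp1Δ::kanMX6* to wild type was 11.1 times higher for *CLB4* than for *CLB3* (6.30 to 19.7), a difference beyond counting error. *CLB5* gave a comparison at a closer mRNA level, since in the deletion its mRNA was 1.13 times that of *CLB3* (1.03 to 1.24) and its FP were 34.3 times as high (19.9 to 65.0).

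*CLB5* (YPR120C, 1308 bp, chromosome XVI), an S-phase cyclin, had the larger part of its log2 FP decrease in TE as deposited. Its FP were 241.9 RPKM (1298 inferred reads) in wild type and 106.4 RPKM (455 reads) in the deletion. Its mRNA was 217.2 and 164.8 RPKM, from 631 and 1030 reads. *CLB5* FP were 2.27-fold lower (2.04 to 2.54) and its mRNA 1.32-fold lower (1.19 to 1.46), the smallest mRNA decrease among the 5 genes that decreased. TE was 1.11 in wild type and 0.646 in the deletion, 1.73-fold lower (1.49 to 1.996), which made up 66.4% of the log2 FP decrease. Centred on the median of all entries, the log2 changes of *CLB5* were −0.77 in mRNA and −0.72 in TE. Which part was larger thus depended on the scaling. After *CLB3*, the TE decrease of *CLB5* was the largest of the 6, and its interval overlapped that of *CLB1*.

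*CLB6* (YGR109C, 1143 bp, chromosome VII), the other S-phase cyclin, was the opposite case, with its whole FP decrease in mRNA. Its FP were 98.7 RPKM (463 inferred reads) in wild type and 27.5 RPKM (103 reads) in the deletion. Its mRNA was 157.2 and 42.7 RPKM, from 399 and 233 reads. *CLB6* FP were 3.59-fold lower (2.89 to 4.49) and its mRNA 3.68-fold lower (3.12 to 4.35), the largest mRNA decrease of the 6 and rank 57 of 5551 entries. TE of *CLB6* was 0.628 in wild type and 0.644 in the deletion, a ratio of 1.03 (0.785 to 1.34), so a TE change beyond this interval was not detected at this depth.

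The S-phase pair thus reached lower footprints in different proportions of mRNA and TE. *CLB5* mRNA was 1.38 times that of *CLB6* in wild type (1.22 to 1.57) and 3.86 times in the deletion (3.34 to 4.47). The mRNA ratio of *dbp1Δ::kanMX6* to wild type was 2.79 times higher for *CLB5* than for *CLB6* (2.31 to 3.38). The TE ratio ran the other way and was 1.77 times higher for *CLB6* (1.30 to 2.40). Both intervals left out 1, so the genes differed beyond counting error in each measure.

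*CLB2* (YPR119W, 1476 bp, chromosome XVI), the main mitotic cyclin, had the lowest value of the 6 genes in all 4 libraries. Its FP were 1.5 RPKM (9 inferred reads) in wild type and 2.7 RPKM (13 reads) in the deletion. Its mRNA was 9.4 and 13.4 RPKM, from 31 and 94 reads. The FP ratio of 1.80 (0.712 to 4.77), the mRNA ratio of 1.43 (0.941 to 2.21) and the TE ratio of 1.26 (0.492 to 3.24) all had intervals that included 1, so no difference was detectable at this depth. Among the 5552 entries past the filter, which *CLB2* itself did not pass, 2.25% had lower FP in wild type and 3.01% in the deletion. Of all 6549 listed entries, 609 in wild type and 649 in the deletion had FP of 0 and so lay below *CLB2*. *CLB1*, its relative, had 396 times as many footprints in wild type (208 to 867) and 56.0 times as many in the deletion (32.6 to 106).

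In the R64 gene order *CLB1* and *CLB6* are adjacent and point towards each other, as are *CLB5* and *CLB2*. Each adjacent pair joins a division cyclin and an S-phase cyclin. *CLB1* and *CLB6* had FP decreases of similar size, with the FP ratio of *CLB1* 0.914 times that of *CLB6* (0.727 to 1.15), but the mRNA ratio of *CLB1* was 1.56 times that of *CLB6* (1.31 to 1.86). *CLB5* and *CLB2* differed in both, with ratios 4.09 times higher for *CLB2* in FP (1.74 to 9.64) and 1.88 times higher in mRNA (1.24 to 2.85). If strand was not used in counting, reads of transcripts that overlap across such a pair would not be separable.

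**Figure D3:**
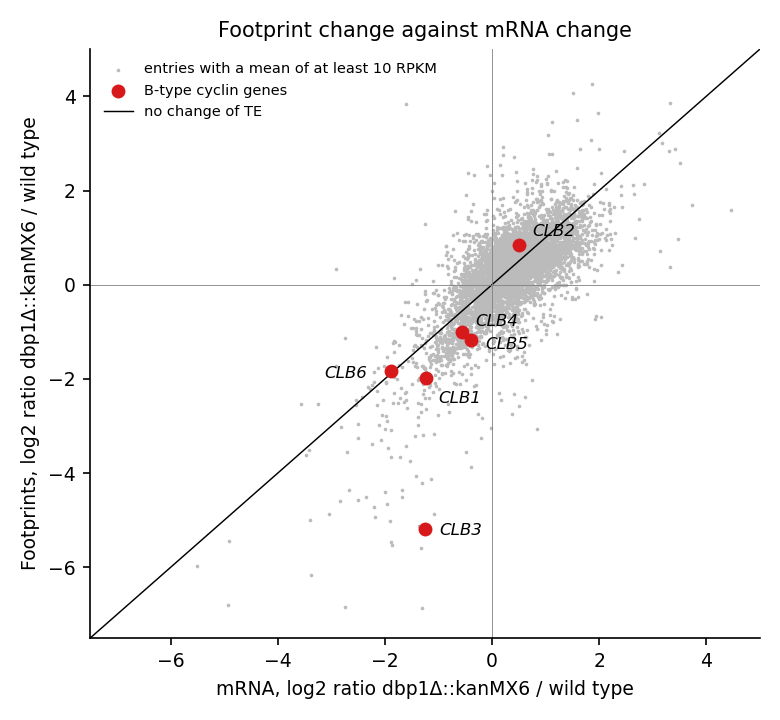
Log2 FP ratio against log2 mRNA ratio (*dbp1Δ::kanMX6* over wild type), with 1 grey point per entry whose mean reached 10 RPKM, the CLB genes in red and a diagonal where TE is the same in both genotypes. *CLB6* lay on the diagonal (−1.88 in mRNA, −1.84 in FP), *CLB1*, *CLB4* and *CLB5* lay below it, and *CLB3* lay farthest below (−1.25 in mRNA, −5.18 in FP).

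The order of the CLB genes by level differed between assays and genotypes. In wild-type FP it was *CLB1*, *CLB4*, *CLB5*, *CLB3*, *CLB6* and *CLB2*, and only the intervals of *CLB3* and *CLB6* overlapped between neighbours in that order. In *dbp1Δ::kanMX6* FP it was *CLB4*, *CLB1*, *CLB5*, *CLB6*, *CLB3* and *CLB2*, with *CLB3* and *CLB2* overlapping. In wild-type mRNA the order was *CLB1*, *CLB3*, *CLB4*, *CLB5*, *CLB6* and *CLB2*, with no overlap between neighbours. In *dbp1Δ::kanMX6* mRNA *CLB3* came after *CLB4* and *CLB5*. Its interval overlapped that of *CLB5*, but the direct ratio of *CLB5* to *CLB3* was 1.13 (1.03 to 1.24), which left out 1. Overlap of intervals thus does not by itself place a difference within counting error. *CLB3* was thus the second most abundant CLB message in wild type and close to last in footprints of the deletion.

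Summed over the 6 genes, FP reached 1426.2 RPKM in wild type against 477.7 in the deletion, 2.99-fold lower, and mRNA was 1632.5 and 826.6 RPKM, 1.97-fold lower. Without *CLB1*, the largest contributor, the sums were 2.55-fold lower in FP and 1.80-fold lower in mRNA. *CLB4* made up 26.4% of the summed FP in wild type and 39.1% in the deletion, and *CLB5* 17.0% and 22.3%. The share of *CLB1* was 41.7% and 31.7%, and that of *CLB3* 7.90% and 0.649%. In mRNA the share of *CLB3* was 21.2% and 17.6%. The cyclin message population thus kept a large share of *CLB3* in the deletion, and the footprint population did not.

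TE set the 6 genes apart within wild type as well. *CLB4*, *CLB5* and *CLB1* had TE of 1.25, 1.11 and 0.988, with intervals that overlapped between neighbours. All lay above the median entry at 0.746. *CLB6* followed at 0.628, and *CLB3* at 0.326 and *CLB2* at 0.160 had overlapping intervals. In *dbp1Δ::kanMX6* cells *CLB4* led at 0.911, *CLB5*, *CLB6* and *CLB1* overlapped between 0.593 and 0.646, and *CLB2* at 0.201 stood above *CLB3* at 0.0213. The median entry in the deletion was at 0.707, and by its point value *CLB4* alone of the 6 stayed above it. The intervals of *CLB5* (0.578 to 0.721) and *CLB6* (0.511 to 0.812) included that median.

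**Figure D4:**
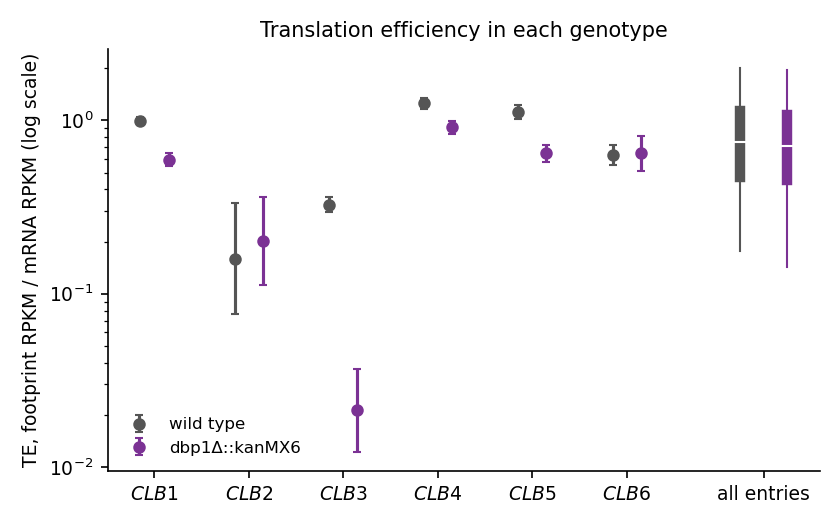
TE (log scale) of each CLB gene in wild type and *dbp1Δ::kanMX6* cells with 95% counting intervals, and at the right the spread over all entries in each genotype (thin line from the lowest 5% to the highest 5%, thick line between the quartiles, white mark the median). *CLB3* at 0.0213 in the deletion was below the thin line, which began at 0.142.

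The entries most like each CLB gene were found by the distance between their 4 log2 RPKM values, each centred on its own mean. For *CLB3* these were *ECM8* (distance 0.305), YDR326C (0.362) and *SPS1* (0.596), where the median entry was at 5.21. *ECM8* had 159.7 RPKM of FP in wild type against 3.3 in the deletion, with mRNA at 457.3 against 181.9, and YDR326C had FP at 80.4 against 2.3 RPKM and mRNA at 205.1 against 80.0. *SPS1*, a protein kinase gene of spore formation, had FP at 457.7 against 14.1 RPKM, with mRNA at 1451.8 against 389.2 RPKM. The measure of likeness used these same values, so the shared pattern describes the choice of these entries.

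*CLB4* and *CLB5* had closer matches. *CLB4* was nearest to *SPO12* (0.0798), a regulator of exit from the divisions, which had FP at 625.5 against 330.6 RPKM, with mRNA at 509.7 against 338.5 RPKM. The others were an entry shared by YBR126W-A and YBR126W-B (0.107) and the lipase gene *TGL4* (0.125). *CLB5* was nearest to *THP2* (0.0757), YBL010C (0.0800) and *SSP1* (0.112), a gene of prospore membrane growth with FP at 701.7 against 340.7 RPKM, with mRNA at 648.6 against 516.5 RPKM. *CLB4* and *CLB5* were also the nearest pair among the CLB genes, at 0.371, and *CLB1* and *CLB6* followed at 0.535. *CLB3* was 3.79 to 4.74 from every other CLB gene.

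The nearest entries of *CLB1* were YFR012W (0.174) and the amino acid permease genes *GNP1* (0.201) and *TAT1* (0.217). Those of *CLB6* were *RAX2* (0.134), YLL029W (0.141) and YNL095C (0.161). *CLB2*, at its low read numbers, was nearest to YDR458C (0.135), *HFA1* (0.143) and *SIP4* (0.154). Of these 9 entries none was in the meiotic or cell cycle lists described next, whereas *SPS1*, *SPO12* and *SSP1* were.

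As deposited, the gene of the kinase that B-type cyclins activate did not share the lower footprints of most CLB genes. *CDC28*, which encodes Cdk1, had FP at 286.5 RPKM in wild type against 312.3 in the deletion, a ratio of 1.09 (0.997 to 1.19), and its mRNA was 1.31-fold higher (1.17 to 1.47). The FP interval included 1. Centred on the median of all entries, its log2 FP change was −0.22 and its mRNA change 0.02, so the sign of the *CDC28* FP change depended on the scaling. *CKS1*, a small protein bound to Cdk1, had 1.50-fold higher FP (1.24 to 1.82). *CAK1*, the kinase that activates Cdk1, was the only 1 of the 8 listed Cdk1 partners past the filter with lower FP, from 131.7 to 75.6 RPKM, 1.74-fold lower. The gene for *SWE1*, the kinase that inhibits Clb-bound Cdk1, had FP of 6.3 and 14.8 RPKM, 2.35-fold higher (1.72 to 3.24), and mRNA 2.15-fold higher (1.67 to 2.81). *MIH1*, the phosphatase that opposes Swe1, had 1.84-fold higher FP (1.63 to 2.09), and *SIC1*, an inhibitor of Clb-bound Cdk1, had 1.74-fold higher FP (1.30 to 2.33). *HSL7*, whose product regulates Swe1, had an FP ratio of 1.03 (0.815 to 1.30), and *HSL1*, its partner, was below the filter with FP at 2.1 and 1.5 RPKM. The list also held the kinase gene *IME2*, whose values are given below with the RNA-binding regulators. The median log2 change of the 8 genes, *IME2* included, was 0.44 in FP, near the 0.35 of all entries. Of the 8, 4 in FP and 5 in mRNA were below the median entry.

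Of the 8 listed transcription factors that act on CLB genes, *NDT80* had the largest FP decrease. *NDT80* FP were 1007.6 RPKM in wild type against 447.0 in the deletion, 2.25-fold lower (2.16 to 2.36), and its mRNA was 705.6 and 515.0 RPKM, 1.37-fold lower (1.31 to 1.44). *NDD1*, a coactivator for *CLB2*, had FP of 60.8 and 52.1 RPKM, and *MBP1*, which binds DNA in MBF, a regulator of S-phase genes, had 16.2 and 11.5 RPKM. *SUM1*, the repressor of middle meiotic genes, had FP at 7.5 and 5.2 RPKM, and *SWI6*, the partner of Mbp1, at 27.6 and 22.3 RPKM. *MCM1*, which binds with forkhead factors at *CLB2*, had 1.48-fold higher FP (1.18 to 1.87), and the forkhead factor genes had FP ratios of 1.12 for *FKH1* (0.793 to 1.58) and 0.821 for *FKH2* (0.604 to 1.11), both including 1. In all, 6 of the 8 had lower FP, as did 31.0% of all entries. None of these 8 genes was at least 2-fold changed in mRNA, where 4.18% of entries were lower and 16.6% higher.

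The RNA-binding regulators moved in different directions. *RIM4*, whose product holds *CLB3* mRNA from translation, had FP at 1600.8 RPKM in wild type against 3575.5 in the deletion, 2.23-fold higher (2.19 to 2.28), with mRNA at 933.9 against 1685.2 RPKM, 1.80-fold higher (1.75 to 1.87). *IME2*, the kinase known to promote clearance of Rim4, had FP 1.23-fold and mRNA 1.13-fold higher as deposited, both below the median entry. *PES4* and *MIP6*, which encode paralogous RNA-binding proteins of middle meiosis, had FP 2.66-fold and 3.60-fold lower. *SPS1* and *GIP1* mRNAs are also described as held by Rim4, and the FP of *SPS1* were 32.5-fold lower (25.5 to 41.9) with mRNA 3.73-fold lower, while the FP of *GIP1*, a phosphatase subunit of spore formation, were 22.9-fold lower (19.7 to 26.8) with mRNA 3.21-fold lower. Their TE was 8.70-fold (6.81 to 11.1) and 7.14-fold (6.10 to 8.37) lower, beside 15.3-fold for *CLB3*. Whether the *RIM4* level has a part in the *CLB3* change was not tested.

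Genes of cyclin destruction were lower together with the CLB genes. *CDC20*, which targets cyclins to the anaphase-promoting complex, had FP of 324.7 and 73.9 RPKM, 4.39-fold lower (3.97 to 4.87), and mRNA 2.24-fold lower. *CDH1*, a second activator of that complex, had FP 2.64-fold lower, and *AMA1*, its meiosis-specific activator, 1.31-fold lower. All 3 listed activators thus had fewer footprints in the deletion, as did 31.0% of all entries. The lists overlap, with *CDC20* also in the CLB2 cluster and *AMA1* also among the middle meiotic genes.

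The middle meiotic genes were lower together with the CLB genes. All 16 listed middle meiotic genes had lower FP in *dbp1Δ::kanMX6* cells, 11 of them by at least 2-fold, with a median log2 change of −1.33, and 15 of 16 had lower mRNA, 8 by at least 2-fold, with a median of −0.90. Over all entries 31.0% were lower in FP and 28.6% in mRNA, and 8.23% and 4.18% were at least 2-fold lower. In TE 4 of the 16 were at least 2-fold lower, as were 6.07% of all entries, and the median of the 16 was −0.69. *SPO20*, a SNARE of the prospore membrane, was lowest with FP of 357.0 and 7.7 RPKM, 46.4-fold lower (32.4 to 68.9), and TE 12.6-fold lower (8.74 to 18.2). *CDC5*, the polo kinase gene, which is also in the CLB2-cluster list, was at the other end, with FP at 440.6 against 390.5 RPKM, with mRNA at 477.5 against 555.8 RPKM, an mRNA increase that becomes a decrease after centring. The CLB medians over all 6 genes, −1.51 in FP, −0.90 in mRNA and −0.60 in TE, lay close to those of the middle meiotic genes. They include *CLB2*, which did not pass the filter. For the 5 CLB genes past the filter the medians were −1.84, −1.24 and −0.74, each lower than in the middle meiotic genes.

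Earlier markers were not lower as deposited. All 11 early meiotic genes had higher FP in the deletion, as did 68.7% of all entries, with a median log2 change of 0.61, from 0.32 for *DMC1* to 1.02 for *MEI4*, and none was lower in mRNA, though 1 in FP and 2 in mRNA were below the median entry. The 11 S-phase genes of the MBF list past the filter, which share their regulator with *CLB5* and *CLB6*, had a median FP change of 0.48, from 0.06 for *POL1* to 1.96 for *RAD27*, and none was lower in FP or mRNA, though 2 in FP and 3 in mRNA were below the median entry. *CLB5* and *CLB6* were therefore lower in FP and mRNA where none of these S-phase genes was. Of the 11 genes of the mitotic CLB2 cluster, which is transcribed with *CLB2* in dividing cells, 6 passed the filter. At least 2-fold lower FP was found for 3 of these 6, and for 8.23% of all entries. *CDC20* was the lowest of them in FP, and *MYO1*, the myosin of cell separation, in TE, with FP of 16.5 and 4.9 RPKM. With 1 culture per genotype, a difference in how far the cultures had progressed and a difference within cells of 1 stage cannot be told apart, and the part of these marker levels in the CLB changes was not tested.

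**Figure D5:**
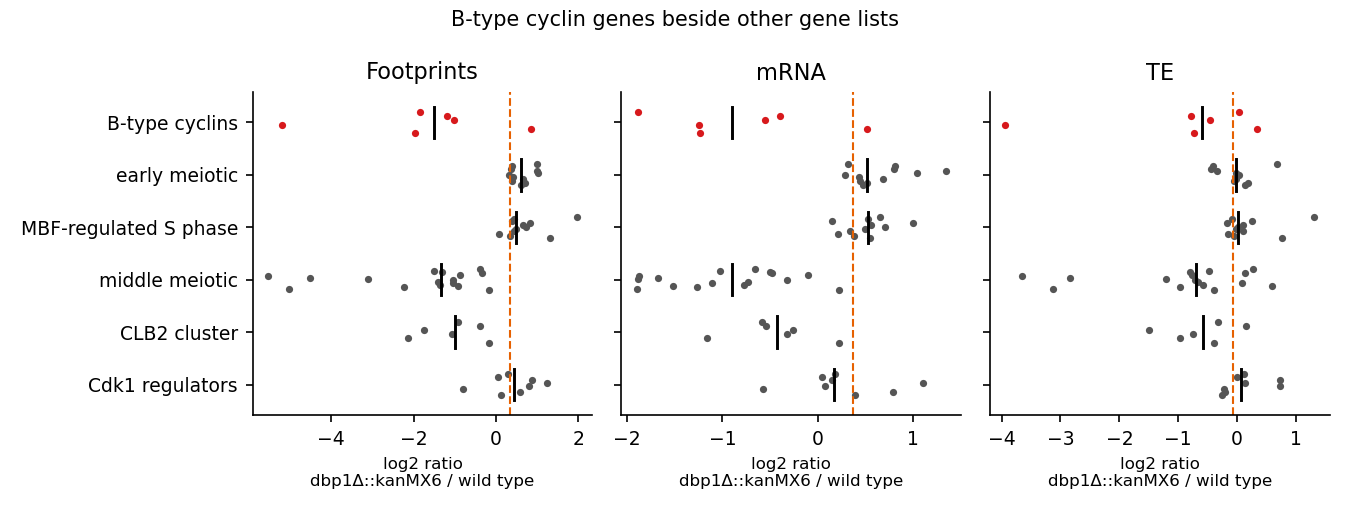
Log2 ratio of *dbp1Δ::kanMX6* to wild type in FP, mRNA and TE for the 6 CLB genes (red) and for the genes of 5 lists that passed the filter (grey), 1 point per gene, with a black bar at each median and a dashed line at the median of all entries. In FP the CLB median was −1.51 over the 6 genes, or −1.84 for the 5 past the filter. It lay on the same side of 0 as the middle meiotic genes (−1.33). The medians of the early meiotic (0.61) and MBF-regulated genes (0.48) lay on the other side.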

How the data were processed

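Ribosome footprints and mRNA were each measured in 1 library per genotype. The deposited values are RPKM, which the authors computed from reads per ORF, mapped against SK1 and scaled to gene length and to the library's mapped reads. The submitters' processing notes name CASAVA, bcl2fastq 2.17 and Bowtie2; the annotation and settings are not given in the sources used here. Values have 1 decimal. The R64 gene table matched 5771 of the 6549 entries and gave names, gene order and ORF lengths only.

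TE was the quotient of FP and mRNA RPKM, and changes were plain ratios with a pseudocount of 0. Entries whose mean reached 10 RPKM entered summaries, with ratios for 5453 entries in FP, 5551 in mRNA and 5452 in TE. Reads were inferred by scanning for the depth that placed values under 20 RPKM of ORFs under 500 bp on whole reads (within 0.05 RPKM). The share on whole reads was 68.1%, 65.7%, 63.1% and 67.1% in the wild-type FP, *dbp1Δ::kanMX6* FP, wild-type mRNA and *dbp1Δ::kanMX6* mRNA libraries, where chance gave 13.9%, 10.9%, 6.98% and 14.8%, so the depths are approximate. Ratio intervals are exact conditional (Clopper-Pearson) for FP and mRNA and log-normal for TE, at 95%. Scripts were tested on simulated data.

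The members and the 8 gene lists were chosen with earlier results of these data known. Named genes were the CLB genes, the genes of the 4 lists of regulators, the extremes of the other lists, *SPS1*, *GIP1*, *DBP1*, and the 3 nearest entries of each CLB gene; gene neighbours were added with their position. Alternatives were other scalings, pseudocounts, filters, a 4-fold threshold and the second-best depth. Sequences were not analysed here. Python 3.11.15, numpy 2.4.6, pandas 2.3.3 and scipy 1.17.1 were used.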

Additional observations from a re-analysis of the deposited data

How the results depend on the processing

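No CLB change reversed its direction under any alternative. Of 90 member changes under 5 alternatives, 72 stayed inside the counting interval of the deposited change and 18 fell outside it. All 18 were under centring on the median or trimmed-mean scaling, and all were towards a larger decrease. Centred on the median of all entries, the log2 FP changes were −2.32 for *CLB1*, −1.36 for *CLB4*, −1.53 for *CLB5* and −2.19 for *CLB6*, and the log2 mRNA changes −1.61 for *CLB1*, −1.62 for *CLB3*, −0.92 for *CLB4*, −0.77 for *CLB5* and −2.25 for *CLB6*. With trimmed-mean scaling the FP changes were −2.32 for *CLB1*, −1.36 for *CLB4*, −1.53 for *CLB5* and −2.19 for *CLB6*, and the mRNA changes −1.60 for *CLB1*, −1.61 for *CLB3*, −0.92 for *CLB4*, −0.76 for *CLB5* and −2.24 for *CLB6*. At a 4-fold threshold 1 CLB gene was lower in FP and 0 in mRNA. With the second-best depths the 14 CLB intervals below 1 stayed below 1 and the 4 that included 1 still did. No paired analysis was possible because each genotype and assay had 1 library. At the best-scoring depths the *CLB3* FP level in *dbp1Δ::kanMX6* cells rests on an inferred 13 reads and *CLB2* on 9 to 94. Spread between cultures was not measured.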
